A study of Mus musculus with 16 samples.

Results

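RNA of the facial mesenchyme of Esrp1 knockout (KO) mouse embryos was compared with RNA of the same layer of wild-type (WT) embryos. Both groups were C57BL/6 embryos at embryonic day 12, and the KO embryos were Esrp1-/-. The mesenchyme of the facial prominences was separated surgically from the ectoderm that covers it, and each library was made from a pool of 6 to 7 embryos. Each group had 4 mesenchyme libraries, so 8 of the 16 libraries of the series belong to the comparison, and the other libraries are of ectoderm. The deposited table gives 1 value in TPM (an abundance scaled to the library total and to transcript length) per gene and group. A gene was measured where its mean over the KO and WT mesenchyme values was 5 TPM or more, which held for 11002 of the 30286 gene symbols of the table.

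With 1 value per group there is no spread between replicates, no test was possible, and every difference below describes the deposited values. The depth behind a TPM value is unknown. The difference is the log2 ratio of KO over WT after 1 TPM was added to each value, a scale on which differences of weakly expressed genes come out smaller than they are. Genes are called higher or lower at 1.5-fold (a log2 ratio of 0.585). At the limit of the filter, H2-Q7 (5.28 TPM in WT against 4.72 in KO) and Syt6 (6.50 and 3.50) were just inside, and Palmd (5.38 and 4.61) and Sema3c (4.42 and 5.57) just outside. Of the measured genes 117 reached 5 TPM in KO but not in WT and 262 in WT but not in KO, so genes of these kinds entered through the group in which they were high.

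Facial mesenchyme is formed mainly by cranial neural crest cells, which give rise to the cartilage, bone and connective tissue of the face, and it is crossed by vessels, muscle precursors from mesoderm and the nerves of the head. Signals pass between it and the ectoderm: ligands such as Shh, Wnts and Fgfs are made in the ectoderm, and their receptors, transcription factors and feedback genes are active in the mesenchyme. Esrp1 is a splicing regulator of epithelial cells, so mesenchyme lies outside the tissue in which the gene is known to act. The series is titled for the part of Esrp1 in facial clefts, through Wnt signals and exchange between ectoderm and mesenchyme.

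The values bore the marks of mesenchyme in both genotypes. Prrx1, a homeobox factor of limb and face mesenchyme, was at 292.6 TPM in WT against 253.7 in KO, Twist1, a factor of neural crest mesenchyme, at 191 and 126.8, and Pdgfra, a receptor of the same cells, at 126 and 121.6. Of 45 genes of surface epithelium, 4 were measured (Krt18, Cdh3, Jup and Spint2), 2 of them lower before and none after the correction described next. Of the other 41, the KO value was above WT in 21 and below it in 19. Krt5, the keratin of basal cells, was at 2.22 TPM in WT mesenchyme and 2.32 in KO, against 702 in WT ectoderm, and the cadherin Cdh1 at 1.23 and 1.11, against 190.4 in WT ectoderm. The uncorrected values of the 45 genes summed to 108 TPM in WT against 84.3 in KO mesenchyme. Jup (30.1 and 13.4 TPM) and Cdh3 (11.3 and 5.79 TPM) are part of this sum, and both were within 1.5-fold after the correction. Esrp1 itself stood at 1.01 TPM in WT and 1.0 in KO mesenchyme and its paralog Esrp2 at 0.96 and 0.64, so the layer does not check the knockout. In ectoderm Esrp1 was at 170.0 TPM in WT against 62.9 in KO.

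The first feature of the comparison was a dependence on base composition. Genes with GC-rich transcripts had lower values in KO mesenchyme and genes with AT-rich transcripts higher values. With the genes in 10 bins of equal size by GC, the median log2 ratio was 0.21 in the bin with the least GC (up to 41.2%), and it stepped down from bin to bin to -0.56 in the one with the most (57.6% or more). At least 1.5-fold lower in KO were 0.273% of genes in the first of these bins and 47.7% in the last. The Pearson correlation of the ratio with GC was -0.60 across genes, which share the same 8 libraries and are not independent replicates. In ectoderm, whose libraries are separate, the bins ran the other way, from -0.00 to 0.18, with a correlation of 0.23.

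The difference in composition can be read from 2 genes toward its ends, and for Cd248 the first 90 bases of the coding sequence are shown with G and C in capitals. Cd248, a surface glycoprotein of fibroblasts and pericytes on chromosome 19 (5068078 to 5070682, plus strand), has 61.3% GC in its transcript and 77.8% in the stretch shown. Dcx, a microtubule protein of young neurons on chromosome X (143855842 to 143933311, minus strand), has 40.6% in its transcript. The sequence is read from GENCODE M21 on GRCm38.
Cd248: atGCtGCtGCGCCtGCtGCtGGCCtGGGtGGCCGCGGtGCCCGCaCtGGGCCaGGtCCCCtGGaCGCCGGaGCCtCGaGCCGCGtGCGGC
Cd248 was at 65.2 TPM in WT against 19.4 in KO mesenchyme, a log2 ratio of -1.70, of which -0.61 lay on the trend and -1.09 beyond it. Dcx was at 5.67 and 12.9 TPM, a ratio of 1.06, of which 0.17 lay on the trend and 0.89 beyond it. Both genes therefore differed in the direction of the trend and by more than it.

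**Figure D1:**
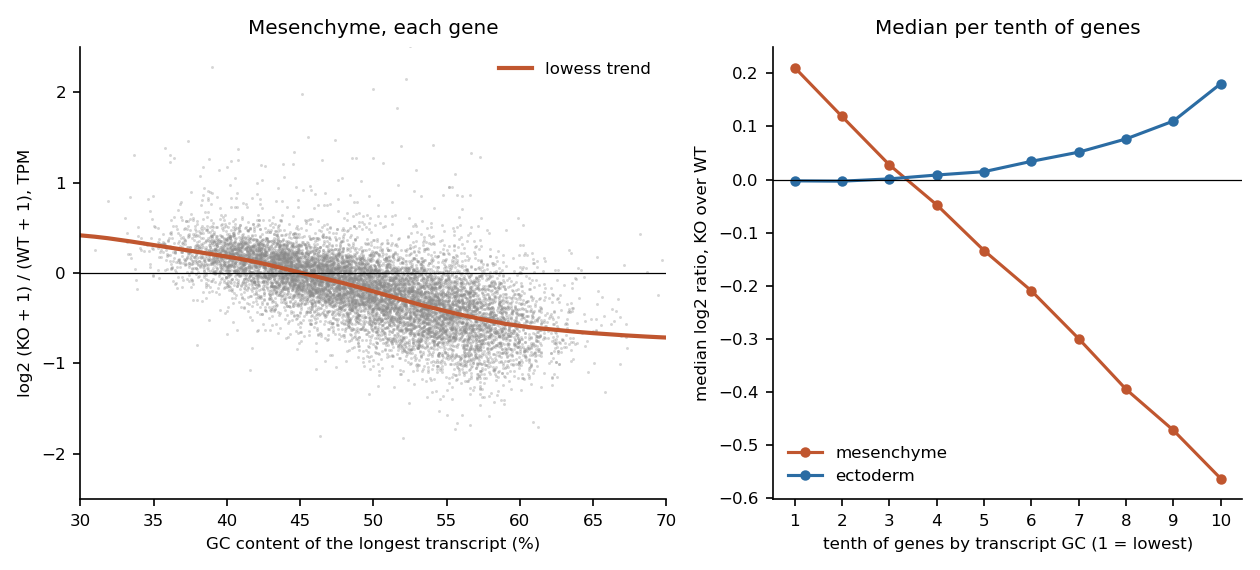
The left panel plots the log2 ratio of KO over WT mesenchyme (vertical axis) against the GC content of the longest transcript in percent (horizontal axis), 1 point per gene, with the lowess trend as a line. 15 genes lie outside the axes. The right panel plots the median log2 ratio in the 10 bins by GC for mesenchyme and ectoderm, and shows mesenchyme descending from 0.21 to -0.56 while ectoderm ascends from -0.00 to 0.18.

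The trend was taken out with a smooth curve (lowess), which stood at 0.18 for a transcript with 40% GC, 0.01 at 45%, -0.20 at 50%, -0.42 at 55% and -0.59 at 60%. Before its removal 1712 of 11002 genes (15.6%) were lower in KO and 175 (1.59%) higher, and the median of all genes was -0.15. After removal 271 of the 10980 genes with known GC (2.47%) were lower and 327 (2.98%) higher, and the median was 0.01. The genes lower both before and after numbered 257, which is 15.01% of those lower before and 94.8% of those lower after. The genes higher both before and after numbered 131, which is 74.9% and 40.1% in the same order. Lists of genes below are given before and after removal of the trend, and their counts are to be read against these shares. Members below the filter are given by the direction of their TPM alone, without the correction. No share over all genes below the filter stands beside them, so their directions are no result about a list. The labels list 2 index barcodes for 2 of the 4 KO mesenchyme libraries and 1 barcode for all 4 WT mesenchyme libraries. In ectoderm, they list 2 barcodes for 2 of the 4 KO and for 1 of the 4 WT libraries. The part of the barcodes in the trend was not tested. In bulk RNA, fewer cells of a type and less RNA of a gene per cell cannot be told apart.

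Of the 6 genes taken as markers of the comparison, 4 had lower and 2 higher values in KO mesenchyme. Lef1, a nuclear partner of beta-catenin on chromosome 3 (131110471 to 131224356), had 82.9 TPM in WT against 39.25 in KO, with a log2 ratio of -1.06 before and -1.02 after removal of the trend. The choice of transcript matters for this gene, since with the median GC of all its transcripts the second value was -0.84. Osr2, a zinc finger factor of palate mesenchyme on chromosome 15 (35296098 to 35303305), was at 59.8 and 25.5 TPM (-1.20 and -0.83). Gli2, an activator of hedgehog target genes on chromosome 1 (118834132 to 119053619), was at 41.2 and 17.2 TPM (-1.21 and -0.70), and Col1a2, a chain of type I collagen on chromosome 6 (4504814 to 4541544), at 488.7 and 223.5 TPM (-1.13 and -0.68). Hspa1a, an inducible chaperone on chromosome 17 (34969190 to 34972156), and Stmn4, a tubulin-binding protein of neurons on chromosome 14 (66344296 to 66361680), had higher values and are described below with their groups.

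The hedgehog genes beyond 1.5-fold after removal of the trend were all lower, and they were regulators of transcription. Of 24 listed genes 20 were measured, and every one of the 20 had a ratio below 0 before removal of the trend. Lower by 1.5-fold were 10 before removal, against 15.6% of all genes, and 4 after, against 2.47%. None was higher, and the median was -0.58 before and -0.15 after. The 4 genes were Osr2 and Gli2 with the values above, Foxf1, a forkhead target (18.2 TPM in WT against 8.37 in KO, -0.63 after), and Sufu, a repressor of Gli proteins (46.6 and 22.0 TPM, -0.59). Ptch1, receptor and target in one, was at 37.55 and 25.5 TPM (-0.43), and Gli1, whose transcription follows pathway activity, at 72.3 and 38.3 TPM, with a ratio of -0.90 before and -0.34 after. The signal transducer Smo, at 113 and 74.7 TPM, had a ratio of -0.59 before and -0.07 after, so most of its difference lay on the trend. The 4 genes below the filter (Hhip, Boc, Foxl1 and Foxd2) each had a lower value in KO, by little for Hhip (3.51 and 3.44 TPM) and Boc (0.26 and 0.22 TPM). Osr2 was entered in the list as a gene downstream of hedgehog signalling in the palate, and it is also a member of other lists.

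Among feedback genes and targets of canonical Wnt signalling, 22 of 28 were measured. Lower were 9 before and 3 after removal of the trend, none was higher, and the median went from -0.45 to -0.16. After Lef1, Apcdd1, a membrane inhibitor of Wnt signals, was at 140.5 TPM in WT against 77.0 in KO (-0.74 after), and Tcf7, a relative of Lef1, at 11.6 and 5.74 TPM (-0.59). These 3 genes encode 2 of the 4 measured nuclear factors of the pathway and 1 inhibitor. The other nuclear factors, Tcf7l1 (65.0 and 30.2 TPM, -0.51) and Tcf7l2 (30.05 and 20.1 TPM, -0.47), were below 0 but within 1.5-fold. Axin2, the feedback gene most used as a readout, was at 52.0 and 33.9 TPM, with -0.60 before and -0.20 after. Ctnnb1, which encodes beta-catenin, was at 869 and 756 TPM (0.01 after), and Dkk2 (19.7 and 20.3 TPM) and Lgr5 (18.45 and 16.8 TPM) were close to WT. The 6 members below the filter had lower values in KO, some near 0, such as Sp6 (0.23 and 0.17 TPM).

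Of 32 receptors and secreted modulators of Wnt signals 25 were measured, 9 of them lower before and 3 after removal of the trend, with a median of -0.50 and then -0.25. Lrp5, a coreceptor, was at 37.7 TPM in WT against 14.1 in KO (-1.36 before and -0.95 after), whereas its paralog Lrp6 was at 36.1 and 33.15 TPM (-0.09 after). Sfrp2, a secreted Wnt-binding protein, was at 150.5 and 73.8 TPM (-0.68), and Gpc4, a cell-surface proteoglycan, at 21.9 and 11.8 TPM (-0.60). Fzd3, a frizzled receptor with a transcript of 40.3% GC, was the 1 higher member, at 7.00 and 13.2 TPM (0.66). Ror2 and Ptk7, receptors of the noncanonical branch, were lower before (-1.14 and -1.15) and within 1.5-fold after (-0.58 each). The 7 members below the filter all had lower values in KO.

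For Fgf signalling 18 of 19 genes were measured, with 7 lower before and 3 after, none higher, and a median of -0.50 and then -0.31. Etv5, a transcription factor induced by Fgf, was at 35.8 TPM in WT against 18.2 in KO (-0.65 after), and Spred2, an inhibitor of the pathway, at 24.2 and 12.4 TPM (-0.65). Fgf10, a ligand that mesenchyme sends to epithelium, was at 12.1 and 8.37 TPM, with -0.48 before and -0.62 after, and so passed 1.5-fold through the correction alone. None of the 3 stayed beyond 1.5-fold once a trend with transcript length was taken out too. Dusp6, another feedback gene, was at 54.0 and 56.3 TPM, and the receptor Fgfr1 at 279.9 and 159.85 TPM (-0.80 before and -0.36 after). The feedback genes thus differed in direction, and Fgf7, the member below the filter, was at 2.91 and 2.86 TPM.

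Bmp and Tgf-beta genes differed in both directions. Of 35 genes 31 were measured, with 10 lower and 2 higher before removal of the trend, 4 lower and 2 higher after, and medians of -0.12 and -0.09. The lower ones were the ligands Tgfb3 (28.4 TPM in WT against 13.6 in KO, -0.67 after) and Tgfb2 (42.1 and 25.03 TPM, -0.66), the receptor Tgfbr2 (22.4 and 12.35 TPM, -0.62) and Fst, which binds activin (16.7 and 10.04 TPM, -0.71). The receptor Tgfbr1 (66.2 and 77.1 TPM, 0.06) and the activin chain Inhba (7.27 and 9.06 TPM, 0.14) were not lower. Of the higher ones, Id1, a direct Bmp target, was at 83.6 TPM in WT against 153 in KO (0.86 before and 1.28 after), and the Bmp antagonist Grem1 at 3.66 and 8.03 TPM (0.94 after), a gene that passed the filter through KO. Id2 (293.8 and 388 TPM, 0.40), Id3 (228.5 and 223.55 TPM, 0.42) and Id4 (7.98 and 10.6 TPM, 0.27) had ratios above 0 after removal and were within 1.5-fold. Bmp4, the ligand of the facial mesenchyme, was at 60.1 and 44.2 TPM (-0.12). The 4 members below the filter, among them Bmp2, Nog and Chrd, had lower values in KO.

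Of 26 genes of the Pdgf, Igf and Notch pathways 22 were measured. Lower were 10 before and 3 after removal, none was higher, and the median went from -0.53 to -0.19. Igfbp5, an Igf-binding protein, was at 219 TPM in WT against 91.9 in KO mesenchyme (-1.03 after), but at 1018 and 1004 TPM in WT and KO ectoderm. Pdgfrb was at 96.5 and 43.1 TPM (-0.73), in contrast to its paralog Pdgfra (0.07), and Notch2 at 35.9 and 17.5 TPM (-0.63). Retinoic acid and endothelin genes (17 of 21 measured) had 6 lower and 1 higher before, 2 lower and 1 higher after, and medians of -0.19 and 0.01. The nuclear receptor Rxra (43.7 and 18.9 TPM, -0.67) and the synthesis enzyme Aldh1a2 (69.3 and 37.6 TPM, -0.64) were lower, and Crabp1, a retinoic acid-binding protein with a transcript of 0.802 kb, was higher at 572 and 873 TPM (1.12 after the GC trend and 0.80 after GC and length). The breakdown enzyme Cyp26b1 was at 48.3 and 23.15 TPM and within 1.5-fold after removal (-0.54). Below the filter, the 4 retinoic acid and endothelin genes had higher values in KO, and of the 4 Pdgf, Igf and Notch genes 1 had a higher and 3 a lower value.

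**Figure D2:**
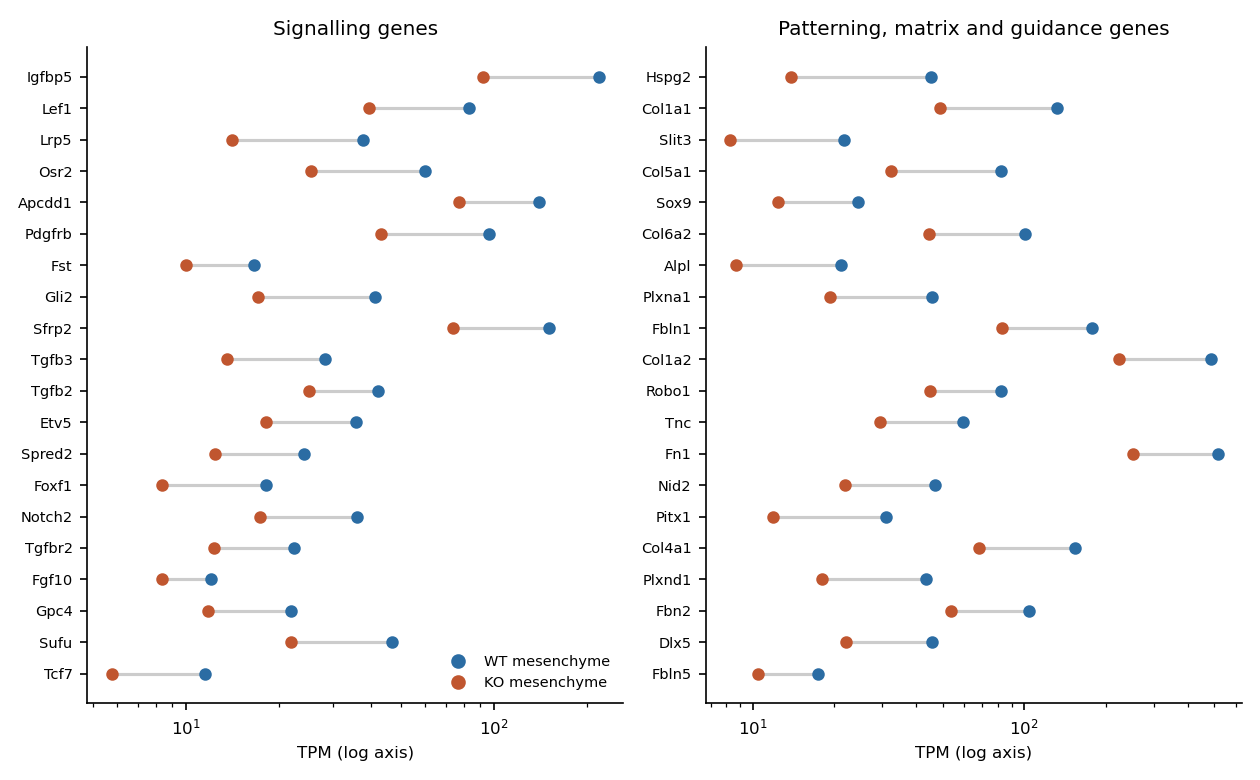
Each row is a gene of the signalling lists (left, 20 genes) or of the patterning, matrix, cartilage and guidance lists (right, 20 genes) that was at least 1.5-fold lower in KO mesenchyme after removal of the GC trend, in the order of the ratio. Blue points are the WT and orange points the KO value in TPM on a log axis, and every KO point lies to the left because the genes were drawn for being lower.

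The transcription factors that define facial mesenchyme were mostly within 1.5-fold of WT once the trend was removed, but their median stayed below that of all genes (0.01). Of 45 listed 43 were measured, with 14 lower before and 2 after, Osr2 and Pitx1, and 1 higher after, Nr2f1. The median was -0.47 before and -0.26 after, and 31 of the 43 ratios were below 0 after removal. Pitx1, a factor of the mandible, was at 31.05 TPM in WT against 11.9 in KO, with -1.32 before and -0.64 after on a transcript of 65.8% GC. Nr2f1, a nuclear receptor, was nearly level in TPM (80.5 and 84.4) and reached 0.66 only through the correction for its 60.2% GC. Msx1 (192.7 and 139 TPM, 0.07 after), Alx1 (92.0 and 88.05 TPM, -0.05), Pax9 (31.9 and 22.9 TPM, -0.40) and Tbx22 (20.1 and 20.7 TPM, -0.26), factors of palate and midface, were within 1.5-fold. Tcf21 and Creb3l1 did not reach the filter and had lower values in KO.

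Of 30 jaw patterning factors 24 were measured. Before removal 9 were lower and 1 higher, after it 3 were lower and 1 higher, and the median was -0.51 and -0.16. Dlx5, one of the lower members, acts downstream of endothelin in the lower jaw and was at 45.8 and 22.0 TPM (-0.61). Dlx6, the neighbour and partner of Dlx5, was at 47.3 and 43.45 TPM (0.05), and Hand2, a further factor of the lower jaw, at 33.3 and 18.9 TPM (-0.22). Hoxa2, a factor of the second pharyngeal arch that is absent from the first arch, was higher at 2.72 and 8.01 TPM (1.43 after) and passed the filter through KO. The other anterior Hox genes were below the filter, each with a higher value in KO: Hoxb2 at 0.50 and 1.07 TPM, Hoxa3 at 0.44 and 0.82, and Hoxb3 at 0.75 and 1.58.

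Among matrix genes the lower values lay in collagens and glycoproteins. Fibrillar collagens (8 of 11 measured) had 4 lower before and 3 after removal, none higher, and medians of -0.67 and -0.30. The 3 were the type I chains Col1a1 (132 TPM in WT against 49.1 in KO, -1.41 before and -0.85 after) and Col1a2, and Col5a1 (82.4 and 32.3 TPM, -0.79). Col3a1 (806 and 540 TPM, -0.26 after) and Col5a2 (109.6 and 96.0 TPM, -0.00) were within 1.5-fold. The cartilage collagen Col2a1 was at 192.7 and 113.9 TPM, and its ratio of -0.75 was -0.13 after removal. Of 23 other collagens 20 were measured, all below 0 before removal, with 8 lower before, 2 after (Col6a2, 100.9 and 44.6 TPM, -0.73, and the basement membrane chain Col4a1, 153 and 68.1 TPM, -0.64) and medians of -0.49 and -0.10.

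Of 39 matrix glycoproteins and proteoglycans 36 were measured, 17 of them lower before and 7 after, none higher, with medians of -0.57 and -0.25. Hspg2, the basement membrane proteoglycan perlecan, was at 45.4 TPM in WT against 13.8 in KO (-1.65 before and -1.04 after). Fn1, which encodes fibronectin, was at 515 and 251.5 TPM (-0.67), Fbln1 at 178 and 83.0 (-0.68), Tnc at 59.4 and 29.3 (-0.67) and Nid2, a linker of basement membranes, at 46.9 and 21.8 (-0.67). Fbn2 and Fbln5, proteins of elastic fibres, completed the 7. The small leucine-rich proteoglycans differed among themselves: Dcn was at 34.5 and 37.2 TPM (-0.14 after), Lum at 89.6 and 103.9 (0.09) and Bgn at 120.4 and 84.25 (-0.25). Versican, Vcan, was at 228 and 271 TPM (0.19). Matrix-modifying enzymes (32 of 36 measured) were lower in 12 cases before removal and in 1 after, the protease inhibitor Timp2 (99.45 and 47.8 TPM, -0.67), with medians of -0.49 and -0.06. That 1 is 3.1% of the measured enzymes, near the 2.47% of all genes, and is no result about the list. Other enzymes kept ratios below 0 within 1.5-fold after removal, such as the lysyl oxidase Loxl2 (60.2 and 33.65 TPM, -0.82 before and -0.54 after) and the metalloprotease Mmp15 (13.1 and 5.68 TPM, -1.08 and -0.51), while Serpinh1, the collagen chaperone, was at 599 and 518 TPM (0.27 after). Of the matrix genes below the filter, the 3 fibrillar collagens and the 4 enzymes had lower values in KO, and of the 3 other collagens and the 3 glycoproteins 1 each was higher.

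Cartilage and bone genes (18 of 30 measured) had 8 lower and 2 higher before, 4 lower and 1 higher after, and medians of -0.48 and -0.24. Sox9, the factor that starts cartilage formation, was at 24.5 TPM in WT against 12.3 in KO (-0.77 after), and Alpl, an early bone enzyme, at 21.1 and 8.69 TPM (-0.71). Dlx5, given above, was also a lower member. Sox5, a cofactor of Sox9, was higher at 8.86 and 16.2 TPM (0.79), and Sp7, a bone factor, was at 10.2 and 4.92 TPM (-0.92 before and -0.52 after). Of 12 members below the filter, among them Runx3 (3.83 and 1.95 TPM) and Spp1 (3.56 and 4.69 TPM), 7 had lower and 5 higher values in KO.

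Genes with known roles in orofacial clefts were measured for 44 of 46, and the list overlaps those above. Lower were 20 before and 8 after removal, none was higher, and the median went from -0.48 to -0.28. Among the 8 were Osr2, Sox9, Gli2, Tgfb3, Tgfb2, Tgfbr2 and Fgf10. Members of other pathways stayed within 1.5-fold after removal, such as Wnt5a (166.6 and 141 TPM, -0.17), Tfap2a (10.98 and 10.6 TPM, 0.10) and Efnb1 (72.3 and 38.6 TPM, -0.35). Guidance and Eph-ephrin genes (33 of 40 measured) had 16 lower before and 4 after, none higher, and medians of -0.55 and -0.23. The 4 were Slit3 (21.7 and 8.28 TPM, -0.80), its receptor gene Robo1 (82.0 and 44.96 TPM, -0.67) and the semaphorin receptors Plxna1 (45.8 and 19.25 TPM, -0.70) and Plxnd1 (43.4 and 18.0 TPM, -0.62). The 2 cleft genes below the filter were lower in KO, and of the 7 guidance genes 4 were higher and 3 lower.

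**Figure D3:**
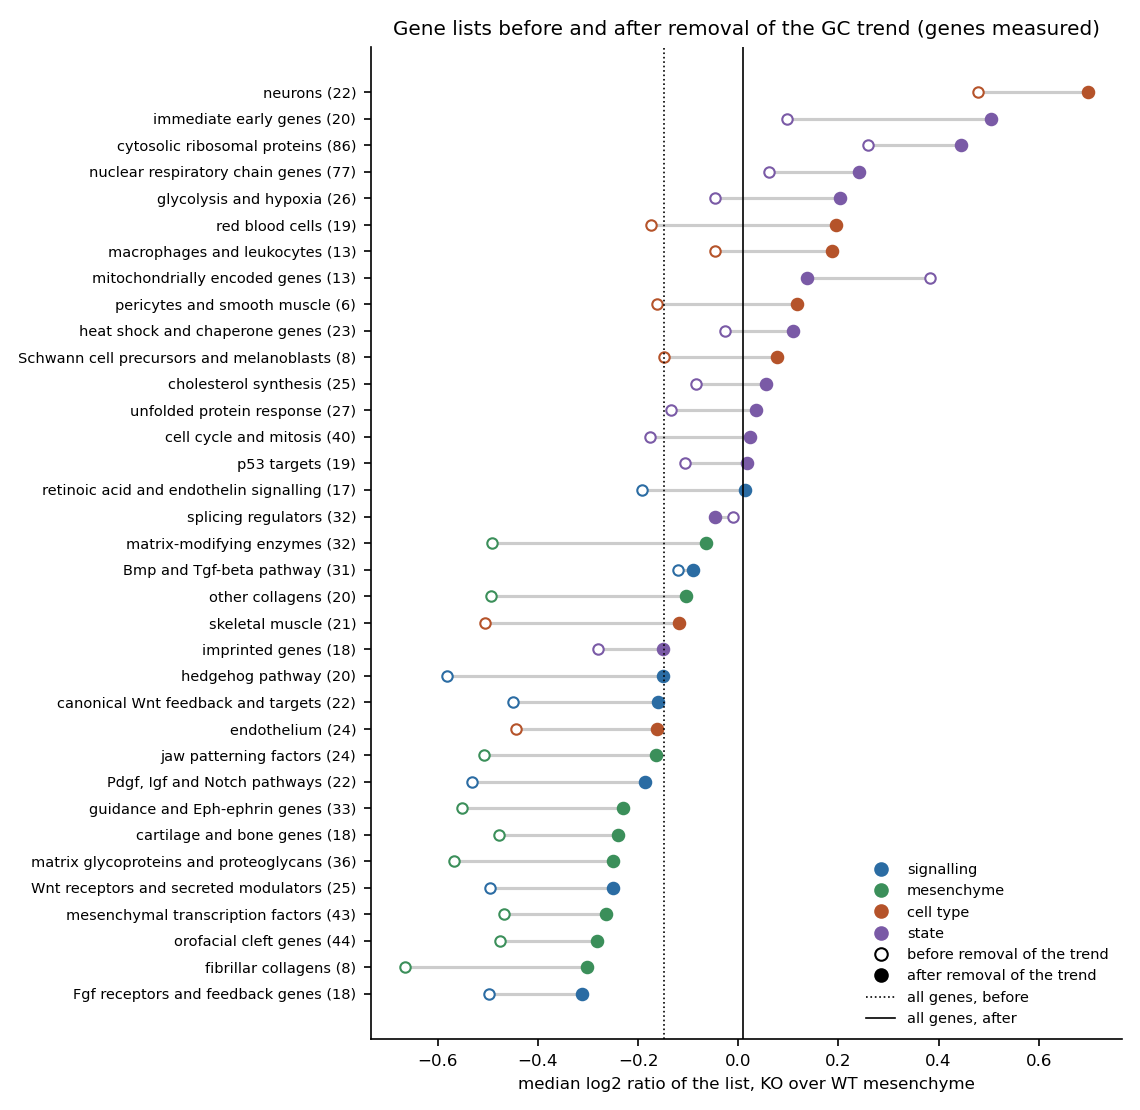
Each line is a gene list with the number of its measured genes, for the 35 lists with 6 or more, and its points are the median log2 ratio of KO over WT mesenchyme before (open) and after (filled) removal of the GC trend. Vertical lines mark the median of all genes, -0.15 before (dotted) and 0.01 after (solid), and the neuron list lies highest at 0.70 and the Fgf list lowest at -0.31.

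Markers of the other cell types of the layer did not follow 1 pattern. Endothelial genes (24 of 26 measured) had 9 lower and 1 higher before, 3 lower and 1 higher after, and medians of -0.44 and -0.16. Cdh5, the cadherin of vessels, was at 55.6 TPM in WT against 28.0 in KO (-0.66 after), and Flt4 and Sox7, a lymphatic receptor and an endothelial factor, were at 8.59 and 3.56 and at 8.13 and 4.08 TPM (-0.59 each). Pecam1 (42.4 and 43.7 TPM, 0.26), Emcn (38.1 and 37.9 TPM, -0.17) and Cd34 (61.6 and 59.4 TPM, -0.14), also vessel markers, were close to WT, and Erg, an endothelial transcription factor, was higher (8.63 and 13.9 TPM, 0.87). Pericyte and smooth muscle genes (6 of 14 measured) had 2 lower and 0 higher before removal, 0 lower and 1 higher after, and medians of -0.16 and 0.12. The higher one was Tagln (13.95 and 17.1 TPM, 0.28 before and 0.60 after), and with length corrected too 0 were higher. Notch3, also in this list, was at 42.6 and 18.8 TPM (-1.14 before and -0.56 after). With 1 of 6 genes beyond 1.5-fold after removal, the count is no result about the list. Below the filter, both endothelial genes and 3 of the 8 pericyte genes had higher values in KO.

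Skeletal muscle genes (21 of 30 measured) had 8 lower before and 1 after removal (4.76%, against 2.47% of all genes), and medians of -0.51 and -0.12, or -0.26 with length corrected too. A share of 1 in 21 is near that of all genes and is no result about muscle. The 1 was Myod1, the myogenic regulator, at 12.8 TPM in WT against 4.06 in KO (-1.45 before and -0.89 after). Myog, which acts after it, was at 43.2 and 27.35 TPM (-0.23 after), and sarcomere genes were near WT after removal, with Actc1 at 152.5 and 127 TPM (0.05) and Myh3 at 22.5 and 18.6 TPM (0.11). Macrophage and leukocyte genes (13 of 23 measured) had medians of -0.05 and 0.19, with Laptm5 lower (12.0 and 4.62 TPM, -0.75) and Tyrobp higher after removal (14.4 and 16.8 TPM, 0.63), while the macrophage chemokine Pf4 stood at 35.1 and 34.7 TPM. Red blood cell genes (19 measured of the 22 found of 23) had medians of -0.17 and 0.20. Their sum was 20497 TPM in WT against 20819 in KO, and the embryonic globin Hbb-bh1 was the 1 higher member (1118 and 1878 TPM, 0.82). With transcript length corrected as well, these calls and directions did not hold: Tyrobp was at 0.26 and Hbb-bh1 at 0.45, and the medians were -0.05 for macrophage and -0.08 for red blood cell genes, with 0 higher in either list. Schwann cell precursor and melanoblast genes (8 of 19 measured) had medians of -0.15 and 0.08, with the glial fatty acid-binding protein Fabp7 higher at 36.9 and 84.9 TPM (1.08), Egfl8 higher after removal (0.65), and the neuregulin receptor Erbb3 lower at 14.2 and 7.45 TPM (-0.59), whereas Sox10 (13.2 and 8.46 TPM, 0.04) was within 1.5-fold after removal. With length corrected too, Fabp7 stayed higher (0.78), but Egfl8 (0.49) and Erbb3 (-0.51) were within 1.5-fold. Below the filter, the KO value was the higher one for 2 of 9 muscle genes, 9 of 10 macrophage genes, 5 of 11 Schwann cell and melanoblast genes and 0 of 3 red blood cell genes.

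Neuron genes had higher values in KO mesenchyme before and after removal of the trend. Of 35 listed 22 were measured, and 19 of the 22 had a higher TPM in KO. Before removal 9 were higher by 1.5-fold, against 1.59% of all genes, and after it 17, against 2.98%, with none lower and medians of 0.48 and 0.70. All 9 were among the 17. Stmn4 was at 5.40 TPM in WT against 16.0 in KO (1.41 before and 1.80 after), and its relatives Stmn3 at 7.65 and 20.0 TPM (1.79) and Stmn2 at 44.8 and 77.0 TPM (0.62). Tubb3, the neuronal tubulin, was at 81.0 and 110.2 TPM (0.97), the neurofilament chains Nefm at 20.0 and 28.3 TPM (1.003) and Nefl at 18.3 and 29.45 TPM (0.81), and the growth cone protein Gap43 at 77.9 and 115 TPM (0.75). Isl1, a homeobox factor of sensory and motor neurons, was at 13.01 and 25.6 TPM (0.95), and the RNA-binding proteins Elavl2 and Elavl4 were at 4.96 and 10.4 and at 7.92 and 15.55 TPM (0.72 and 0.68).

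Not every neuron gene shared the difference, since 3 of the 22 had a ratio below 0 before removal, the lowest at -0.58, and 1 after it. Cntn2, an axonal adhesion protein, was at 9.27 TPM in WT against 8.27 in KO (0.31 after) and the intermediate filament Prph at 9.56 and 9.0 TPM (0.52). Of the 13 members below the filter 11 had a higher value in KO, among them Neurod1 (2.61 and 4.6 TPM), Nhlh1 (3.71 and 5.49 TPM) and Nhlh2 (2.37 and 5.69 TPM), factors of newly formed neurons. Elavl2 and Snap25 passed the filter through KO, and among the 20 members with 5 TPM or more in WT 15 were higher after removal, with a median of 0.71. With a length trend removed as well, 18 were higher and the median was 0.71. The list summed to 418 TPM in WT against 628 in KO. Genes outside the list with known roles in sensory neurons, chosen after their values were seen, included Sncg (28.9 and 53.3 TPM, 1.34), P2rx3 (5.65 and 9.41 TPM, 0.92) and Isl2 (5.30 and 6.80 TPM, 0.89). Sst, the peptide somatostatin, was at 7.61 and 14.6 TPM (1.32).

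**Figure D4:**
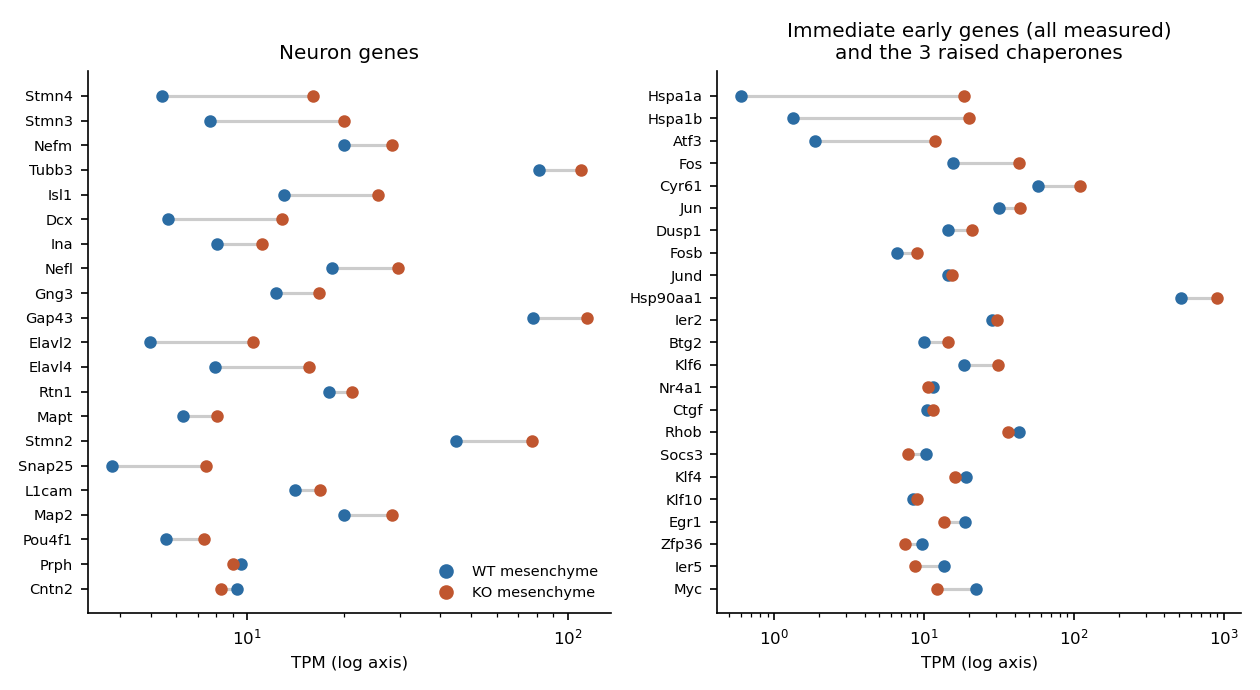
Each row is a gene, with blue WT and orange KO mesenchyme values in TPM on a log axis, in the order of the ratio after removal of the GC trend. The left panel holds 21 of the 22 measured neuron genes, of which 19 have the KO point to the right (the member not drawn had a lower value in KO), and the right panel all 20 measured immediate early genes with Hspa1a, Hspa1b and Hsp90aa1, of which Hspa1a spans the widest interval.

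The highest ratios of all named genes were in inducible heat shock genes. Heat shock factor 1 binds repeats of a short core before the inducible chaperone genes, and Hspa1a and Hspa1b are near-identical neighbours on chromosome 17. The 250 bases before each gene, from RefSeq on GRCm38.p6, were searched on both strands for the core GAANNTTC or TTCNNGAA. Hspa1a (chr17:34972157-34972406, minus strand) holds 1 match, printed in capitals, which starts 104 bases before the gene.
Hspa1a: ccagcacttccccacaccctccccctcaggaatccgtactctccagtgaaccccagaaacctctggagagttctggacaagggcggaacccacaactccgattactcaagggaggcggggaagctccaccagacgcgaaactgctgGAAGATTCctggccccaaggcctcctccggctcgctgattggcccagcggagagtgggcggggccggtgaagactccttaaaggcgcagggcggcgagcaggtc
Hspa1b (chr17:34959239-34959488, minus strand) has the same base at 247 of the 250 positions and the same match. The core is in 12.8% of 32851 promoters of this length and in 9 of the 20 promoters found for the list of heat shock and chaperone genes, so a match is a description and not a binding site.

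Hspa1a was at 0.60 TPM in WT against 18.4 in KO mesenchyme (3.60 before and 4.16 after), and Hspa1b at 1.34 and 19.8 TPM (3.15 and 3.69). Reads of these copies can be exchanged, so their sum is given too: 1.94 TPM in WT against 38.3 in KO, a ratio of 19.7. In ectoderm the sum was 19.5 and 51.0 TPM, a ratio of 2.61, so the WT mesenchyme value was the lowest of the 4. Both genes passed the filter through KO. Hsp90aa1, the inducible Hsp90, was at 515 and 897.5 TPM (0.75), and no other of the 23 measured members of 26 was beyond 1.5-fold after removal. Dnajb1 (47.15 and 43.7 TPM, 0.22), Hspb1 (13.2 and 11.7 TPM, 0.45) and Hsph1 (70.6 and 52.0 TPM, -0.35), inducible by heat as well, were close to or below WT in TPM, and the median of the list was -0.03 before and 0.11 after.

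Immediate early genes, which are transcribed within minutes of a stimulus, had 4 of 20 measured members higher before removal and 10 after, with none lower after, and medians of 0.10 and 0.50. Atf3, a stress-induced factor, was at 1.87 TPM in WT against 11.7 in KO (2.15 before and 2.46 after) and passed the filter through KO. Fos was at 15.5 and 42.9 TPM (1.41 and 1.70), the matrix-associated Cyr61 at 57.5 and 108.9 TPM (1.24 after) and Klf6 at 18.3 and 30.8 TPM (0.61). Those 4 were the members higher before removal. The other 6, such as Jun (31.5 and 43.7 TPM, 0.90), Dusp1 (14.4 and 20.9 TPM, 0.89) and Jund (14.3 and 15.2 TPM, 0.77), passed 1.5-fold through the correction. Egr1 (18.6 and 13.6 TPM, 0.08) and Myc (22.1 and 12.1 TPM, -0.46) had lower TPM in KO. Of 7 members below the filter 5 had a higher value in KO.

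The metallothioneins Mt1 and Mt2, which bind zinc and copper and are induced by metals and stress hormones, were the next pair of neighbours with higher values. Mt2 was at 7.03 TPM in WT against 16.2 in KO mesenchyme (1.10 before and 1.55 after), and Mt1 at 9.75 and 22.6 TPM (1.14 and 1.48). In ectoderm both were far higher and level, Mt2 at 242 and 227 TPM and Mt1 at 194.6 and 190.5. Their promoters on chromosome 8 (Mt1 at chr8:94178839-94179088 and Mt2 at chr8:94172368-94172617, plus strand, GRCm38.p6) were searched on both strands for the core of the metal response element, TGCACNC or TGCGCNC, and matches are in capitals.
Mt1: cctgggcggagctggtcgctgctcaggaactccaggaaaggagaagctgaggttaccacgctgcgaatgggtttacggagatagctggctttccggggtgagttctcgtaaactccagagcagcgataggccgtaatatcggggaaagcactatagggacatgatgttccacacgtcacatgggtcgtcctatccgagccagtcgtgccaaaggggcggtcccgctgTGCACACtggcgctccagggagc
Mt2: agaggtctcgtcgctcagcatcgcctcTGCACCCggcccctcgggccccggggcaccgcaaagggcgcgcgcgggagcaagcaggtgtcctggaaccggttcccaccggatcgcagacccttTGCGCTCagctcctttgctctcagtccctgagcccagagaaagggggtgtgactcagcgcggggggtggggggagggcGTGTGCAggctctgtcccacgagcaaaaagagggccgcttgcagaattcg
In these windows Mt1 holds 1 match and Mt2 holds 3, and 55.2% of the aligned positions are identical. The windows lie differently to the gene starts of GENCODE M21. That of Mt1 ends past the start at 94179082, and that of Mt2 ends before the start at 94172664. The numbers of matches hold for the stretches shown and do not compare the 2 promoters. The core is in 21.4% of all promoters of this length.

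Several lists of general cell state had medians close to that of all genes (0.01) after removal. Unfolded protein response genes (27 of 30 measured, median 0.03), p53 targets (19 of 25, 0.02), cholesterol and fatty acid synthesis (25 of 25, 0.05) and cell cycle genes (40 of 41, 0.02) had at most 1 member beyond 1.5-fold after removal. Before it 2, 3, 7 and 5 of their members were lower, in the same order, 1 p53 target was higher, and the medians were -0.13, -0.11, -0.08 and -0.18. That member was Btg2 for p53 (10.03 TPM in WT against 14.5 in KO, 0.68), which is also an immediate early gene, and the fatty acid synthase Fasn for lipid synthesis (173 and 66.6 TPM, -0.84). The members farthest from 0 in the other lists were within 1.5-fold after removal: the chaperone Hyou1 (89.8 and 48.7 TPM, -0.56) and the stress gene Ddit4 (36.9 and 36.4 TPM, 0.51), and the mitotic kinase Plk1 (83.1 and 40.4 TPM, -0.56) and the cell cycle factor E2f1 (21.8 and 19.9 TPM, 0.42). Glycolysis and hypoxia genes (26 of 29 measured) stood above the median of all genes, with -0.05 before and 0.20 after, and 21 of 26 ratios above 0 after. They had 3 members lower before and none after, and 1 higher member after, Pfkp (7.42 and 10.7 TPM, 0.59). Splicing regulators (32 of 40) had medians of -0.01 before and -0.05 after. They had 1 lower member each time, not the same gene, and after removal it was Khdrbs1 (190.75 and 129.9 TPM, -0.59). After removal 3.8% of the glycolysis genes were higher, near the 2.98% of all genes. Of the splicing regulators 3.1% were lower, near the 2.47% of all genes. These counts are no result about the 2 lists. Imprinted genes (18 measured of the 22 found of 28) stood below the median of all genes, with medians of -0.28 and -0.15. After removal 14 of 18 ratios were below 0, and 4 members were lower before and 2 after (11.1%). The growth regulator Dlk1 was at 263.9 and 101.5 TPM (-1.001) and the retrotransposon-derived Peg10 at 195 and 103.6 TPM (-0.82). Both are imprinted genes of fetal growth expressed from the paternal allele, yet Igf2 (1120 and 801 TPM, -0.03) and Peg3 (212 and 194 TPM, -0.06), of the same kind, were near the trend.

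Short transcripts had higher values after the GC correction. With 10 bins by length, in the bin of transcripts of up to 1300 bases the median was 0.30 and 17.9% were higher, whereas in the bin of 5304 to 6856 bases the median was -0.08 and 0.273% were higher. Of 91 cytosolic ribosomal proteins, whose median length is 1048 bases, 86 were measured. Before removal 3 were higher and 2 lower, with a median of 0.26. After it 29 were higher (33.7%, against 2.98% of all genes) and 1 lower (Rps12l1, described below), with a median of 0.45. Once length was corrected too, 9 were higher, against 184 of the 10980 genes, and 2 lower, with a median of 0.27. Rpl38 (1429 TPM in WT against 1982 in KO) had a ratio of 1.04 after GC and 0.64 after GC and length, Rpl35 (912 and 1299 TPM) 0.99 and 0.71, and Rpl27 (121.6 and 172.65 TPM) 0.94 and 0.61. Rps3a2 (1016 and 1788 TPM, 0.91 after GC) and its near-identical copy Rps3a1 (834 and 519 TPM, -0.57) differed in opposite directions, so the values of these copies are uncertain. Rps12l1, a processed pseudogene, was listed at 0 in KO and at 30.3 TPM in WT mesenchyme, and at 0 and 396 TPM in ectoderm. Since Rps27, a gene that every cell uses, is listed at 0 in both mesenchyme groups, a 0 in the table can be a failed estimate, and no ratio is drawn from it. Nuclear genes of the respiratory chain (77 of 82 measured) had 2 lower and 0 higher before removal, with a median of 0.06. After GC the median was 0.24, with 0 lower and 5 higher (6.5%, against 2.98% of all genes). The 5 were subunits of ATP synthase, Atp5g2 (424 and 505 TPM, 0.90) and Atp5k (461 and 565 TPM, 0.75), and of complex I, Ndufa11 (32.3 and 36.8 TPM, 0.71), Ndufa13 (86.8 and 90.2 TPM, 0.65) and Ndufa6 (135 and 156.7 TPM, 0.59). After GC and length the median of this list was 0.05 and 0 were higher. Processed pseudogenes, which share sequence with their parent genes, made up 68 of the 327 genes higher after GC. The neuron list did not share this dependence, as given above. Some genes called lower or higher in other lists were within 1.5-fold once length was corrected too. Among them were Sufu (-0.52), Tgfb2 (-0.58), Col4a1 (-0.57), Plxnd1 (-0.56), Flt4 (-0.51), Sox7 (-0.55), Khdrbs1 (-0.53) and Tagln (0.47). Other genes passed 1.5-fold only with length corrected too, such as Plk1 (-0.60). Skeletal muscle then had 2 lower members, and the endothelial list again had 3, though not the same ones.

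**Figure D5:**
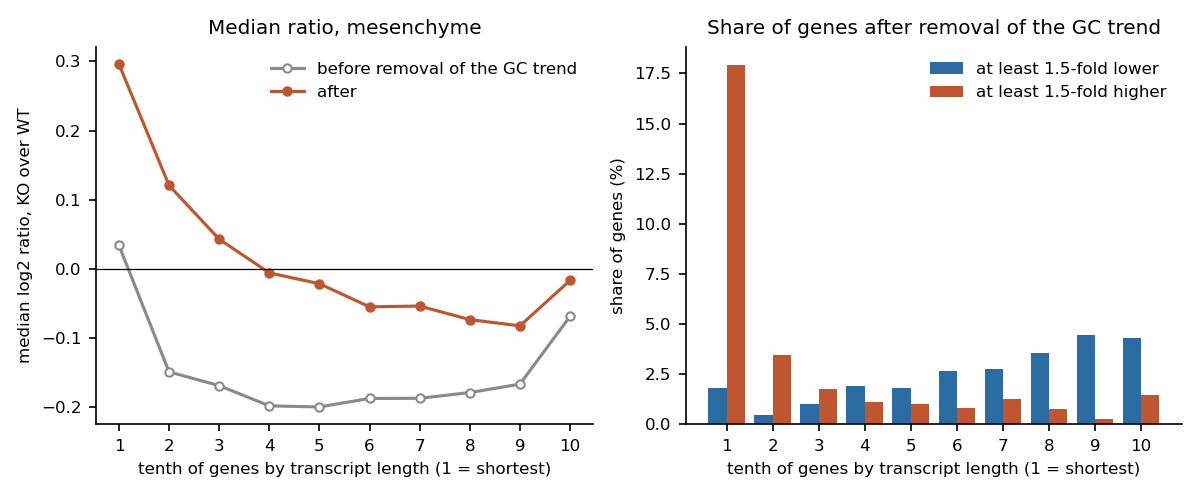
The left panel plots the median log2 ratio of KO over WT mesenchyme in 10 bins of genes by transcript length, before (grey) and after (orange) removal of the GC trend. The right panel plots the share of genes at least 1.5-fold lower (blue) or higher (orange) after removal in the same bins, and shows the most higher genes in the bin of shortest transcripts, at 17.9%.

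Mitochondrially encoded genes made up 7.19% of the TPM of WT and 9.59% of KO mesenchyme. All 13 were measured, 12 with a ratio above 0 before removal, and their median was 0.38 before and 0.14 after removal. mt-Atp8 (11187 TPM in WT against 19491 in KO) had the highest ratio of the 13, mt-Co1 was at 8706 and 12664 TPM, and mt-Co2 (8222 and 7636 TPM) was the exception. With length corrected too the direction turned, to a median of -0.18 with 1 lower member, mt-Co2, and mt-Atp8 went from 0.42 after GC to -0.09. Their part in the other differences was not tested.

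The protein-coding genes with the lowest ratios after removal were not all of mesenchymal function. Polr2a, the largest subunit of RNA polymerase II, was at 139 and 50.7 TPM (-1.12), and Ubr4, a ubiquitin ligase with a transcript of 15.9 kb, at 119 and 40.5 TPM (-1.13). Lrp1, an endocytic receptor, was at 144 and 47.5 TPM (-1.06), Clip3, a microtubule-binding protein, at 199 and 66.5 TPM (-1.14), and Gtf3c2, a subunit of a factor for RNA polymerase III, at 22.0 and 8.12 TPM (-1.15). Ccl21b, a chemokine with near-identical copies and therefore uncertain, was lowest of all at 14.3 and 3.83 TPM (-1.21). Cd248, Hspg2, Igfbp5, Lef1 and Dennd1a (28.9 and 16.2 TPM, -1.04), which encodes an exchange factor of vesicle traffic, were among them too. With the GC trend removed, each of these genes had a ratio between -1.21 and -1.02. At the upper end Dhx9, an RNA helicase, was at 89.7 and 228 TPM (1.31), and in ectoderm at 247 and 187 TPM.

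The genes with the strongest preference for mesenchyme were spread to both sides. Of 219 measured genes at least 5-fold higher in mesenchyme than in ectoderm, by the means of the 2 genotypes, 53 were lower and 13 higher before removal of the trend. After removal 17 were lower and 17 higher (7.76% each, against 2.47% and 2.98% of all genes), with a median of -0.08. A spread to both sides was not particular to them. Of 343 measured genes at least 2-fold higher in ectoderm than in mesenchyme, 16 were lower (4.66%) and 15 higher (4.37%) after removal, with a median of -0.02. Mab21l2, a factor of eye and face mesenchyme, was at 158 TPM in WT against 76.8 in KO (-0.94). In the ectoderm samples the direction was opposite for Mab21l2, at 3.24 TPM in WT against 17.7 in KO ectoderm, and for Col1a2, at 19.9 and 69.7 TPM. The neuron gene Tubb3 was at 16.8 and 33.6 TPM in the same samples. Higher values in KO ectoderm were not particular to these genes. Of the mesenchymal transcription factors, 31 had a mean of 5 TPM or more in ectoderm. Before removal of a trend 15 of them were higher in KO, against 2.92% of all genes there, and 0 were lower. Prrx1 was at 9.22 and 40.4 TPM. The ectoderm median was 1.41 for the 6 skeletal muscle genes that passed this limit. The part of mesenchyme RNA in the ectoderm samples was not tested.

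The sex of the pooled embryos is not given by the labels. The Y-linked genes Ddx3y (15.4 TPM in WT against 39.6 in KO), Eif2s3y (31.4 and 77.4 TPM), Kdm5d (12.2 and 29.4 TPM) and Uty (7.73 and 21.8 TPM) were higher in KO mesenchyme, and their sum of 66.7 and 168 TPM gives a ratio of 2.52. In ectoderm the sum was 63.0 and 110.1 TPM, a ratio of 1.75. The part of the sex of the embryos in the differences above was not tested.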

How the data were processed

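The authors deposited 1 table of TPM per gene symbol and group, with the 4 libraries of each group given as 1 value. The submitters' processing notes name STAR 2.5.2a, kallisto 0.43.0 and mm10, a mouse genome build. Which tool gave the TPM, how libraries were combined, the annotation and the depth were not given in the sources used here. Of repeated symbols the entry with the highest sum was kept.

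The ratio log2((KO + 1)/(WT + 1)) was taken for genes with a mean of 5 TPM or more. GC content and length are those of the longest transcript in GENCODE M21 (GRCm38, the assembly of mm10), found for 99.8% of these genes. The GC trend was fitted by lowess (fraction 0.3, statsmodels 0.14.6) and subtracted, with code tested on simulated data. No test was run, and 36 gene lists are described by counts and medians.

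The members and lists were chosen with earlier results of these data known. The genes named are 6 markers, the 12 lowest and 12 highest protein-coding ratios after correction (without predicted models and pseudogene names), and up to 5 members per list beyond 1.5-fold, otherwise 2. Other members named to show a list's range were chosen after their values were seen. S6 kinases left the ribosomal list after values were seen. Alternatives were another pseudocount, filter, scaling, fold, trend width, GC measure, gene class and a length correction. Some genes that the rule names are not reported here.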

Additional observations from a re-analysis of the deposited data

How the results depend on the processing

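No paired analysis was possible because the table holds 1 value per group. For the same reason no result was recomputed without a library.

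The counts of genes lower and higher before the GC trend was removed (1712 and 175) and after it (271 and 327) moved with some settings. With a pseudocount of 5 TPM they were 1134, 105, 169 and 191, and with a limit of 2-fold 246, 49, 21 and 63. With a mean of 1 TPM or more, the higher genes numbered 334 before and 571 after, and with a mean of 10 TPM or more 116 before. Quantile normalization gave 807 lower and 433 higher before, a split that differs from that of the deposited values, and 274 and 271 after. Removal of the GC trend and then a length trend gave 184 higher, and removal of a length trend alone 828 lower. The cause of these moves was not tested, except that a larger pseudocount and fold lower counts by construction. Of the list medians after removal, recomputed for 15 lists, 161 stayed within 0.1 of the value in the report, 18 moved further and 1 changed sign: skeletal muscle was at 0.0554 with a mean of 10 TPM or more. The neuron median ranged from 0.57 to 0.80 and the hedgehog median from -0.41 to -0.09 (GC, then length). The immediate early median of 0.50 ranged from 0.26 (length trend alone) to 0.64 (quantile normalization), and the ribosomal median of 0.45 went as low as 0.15 (quantile normalization). The ratios of Lef1 (-1.04 to -0.84), Osr2 (-0.99 to -0.78), Gli2 (-1.03 to -0.63), Col1a2 (-1.13 to -0.59) and Stmn4 (1.34 to 1.88) kept their direction and stayed beyond 1.5-fold in each alternative. A filter on the WT value of 5 TPM or more as well, chosen after the data were seen, leaves out Hspa1a, Atf3 and Hoxa2.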
